A study of Mus musculus with 4 samples.

Results

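The expression of 7 genes of cholesterol synthesis was examined in the prefrontal region of mice with and without hypertension and stroke. The 7 genes, Hmgcs1, Idi1, Fdft1, Sqle, Cyp51, Dhcr7 and Insig1, were found by gene symbol among the 33981 genes of the joined tables, and each symbol matched 1 Ensembl identifier. RNA sequencing of poly(A) RNA was performed on a coronal slice of the forebrain holding the prefrontal cortex, in 24 libraries of 4 groups with 6 each. All mice were male C57BL/6J, 3 to 5 months old, carried an osmotic pump for 28 days and were culled on day 28. Normotensive (NT) mice were infused with saline and hypertensive (HT) mice received 0.28 mg/kg/day of angiotensin II. On day 7 a photothrombotic stroke, in which light activates a circulating dye and clots the vessels under it, was made 1.5 mm anterior to bregma according to the sample labels, and the methods of the study place it slightly nearer to bregma. Sham mice underwent the same surgery and dye injection without illumination. The groups are therefore NT + Sham (saline, no illumination), NT + Stroke (saline, illuminated), HT + Sham (angiotensin II, no illumination) and HT + Stroke (angiotensin II, illuminated). The labels do not number the mice, so each of the 6 numbered libraries of a group was taken as 1 mouse, and P-values measure the spread between these libraries.

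Cholesterol in the brain is made locally, because the blood-brain barrier keeps out plasma lipoproteins, and most of it ends up in myelin and in the membranes of neurons and glia. Cells build it from acetyl-CoA through mevalonate, isoprenoids and squalene to lanosterol, which is then trimmed to cholesterol. When sterols in the endoplasmic reticulum run low, SCAP carries the transcription factor SREBP2 to the Golgi for cleavage and the cleaved factor switches on nearly all enzymes of the pathway, whereas INSIG1 holds SCAP back when sterols are plentiful.

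Sequence upstream of the transcription start was available from RefSeq (GRCm38.p6) for 5 of the 7 genes, in 7 windows of 300 bases that run from 250 bases before to 50 bases after a start. Each window was searched on both strands for TCACNCCAC, a core of the sterol regulatory element bound by SREBP, for CCAAT, the box bound by NF-Y, and for GGGCGG, an Sp1 box. Matches of different motifs were counted separately, whether or not they shared letters. Only these strings were searched, so a variant of the sterol regulatory element would have been missed in any window. The sequences of 250 bases before the start are shown for 3 genes, because Hmgcs1 held the sterol regulatory core, Cyp51 held the other boxes without it, and Dhcr7, whose RNA level after stroke is described below, held a single GGGCGG in the window nearest to its annotated start. Capitals mark the matches, on either strand.
Hmgcs1 (chr13:119690101-119690350, plus strand): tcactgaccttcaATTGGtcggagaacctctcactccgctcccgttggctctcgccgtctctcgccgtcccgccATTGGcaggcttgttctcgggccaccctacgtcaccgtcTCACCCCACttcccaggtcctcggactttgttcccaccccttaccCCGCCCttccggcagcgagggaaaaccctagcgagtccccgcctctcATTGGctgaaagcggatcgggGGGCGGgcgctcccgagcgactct
Cyp51 (chr5:4104698-4104947, minus strand): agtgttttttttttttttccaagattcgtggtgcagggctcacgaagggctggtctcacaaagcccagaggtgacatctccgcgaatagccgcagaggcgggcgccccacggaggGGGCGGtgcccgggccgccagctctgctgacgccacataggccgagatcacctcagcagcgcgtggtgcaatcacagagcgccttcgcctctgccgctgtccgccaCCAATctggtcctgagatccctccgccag
Dhcr7 (chr7:143822917-143823166, plus strand): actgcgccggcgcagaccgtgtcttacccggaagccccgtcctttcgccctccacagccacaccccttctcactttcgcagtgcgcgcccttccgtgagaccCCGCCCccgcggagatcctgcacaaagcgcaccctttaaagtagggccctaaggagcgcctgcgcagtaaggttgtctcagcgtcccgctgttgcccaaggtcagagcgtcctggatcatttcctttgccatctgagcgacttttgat

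TCACNCCAC occurred in 1.24% of all 32851 mouse windows of this length, and among the windows of these genes it occurred in that of Hmgcs1, with its first base at -137 from the start. CCAAT occurred in 37.41% and GGGCGG in 35.66% of all windows. The whole Hmgcs1 window held 4 CCAAT and 3 GGGCGG matches, and that of Cyp51 held 1 of each. The Insig1 window held 1 CCAAT and 3 GGGCGG, and that of Idi1 held 2 CCAAT and 1 GGGCGG. Of the 3 Dhcr7 windows, the first had 1 GGGCGG, the second had none of the 3 motifs, and the third, which starts furthest downstream, had 2 CCAAT and 3 GGGCGG. These matches describe the letters of the windows and were not tested as binding sites.

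All 7 genes are protein-coding, and their positions in the tables are those of GRCm38. Hmgcs1 (ENSMUSG00000093930) lies at chr13:119690379-119708260 on the plus strand, Idi1 (ENSMUSG00000058258) at chr13:8885501-8892451 on the plus strand and Fdft1 (ENSMUSG00000021273) at chr14:63145150-63179578 on the minus strand. Sqle (ENSMUSG00000022351) lies at chr15:59315077-59331192 on the plus strand and Cyp51 (ENSMUSG00000001467) at chr5:4081145-4104746 on the minus strand. Dhcr7 (ENSMUSG00000058454) lies at chr7:143823145-143848410 and Insig1 (ENSMUSG00000045294) at chr5:28071363-28078662, both on the plus strand. Reads were summed over each gene, so exons and UTRs were not separated.

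Total counts per library were 15922919 to 24865998 (median 18497216). Markers of cortical excitatory neurons were present in every library, and so were markers of the striatum and the olfactory bulb, whose scores (mean log2(CPM + 1) of the list, CPM being counts scaled to a common library size) ranged from 4.24 to 7.89 for striatum and from 2.24 to 6.03 for olfactory bulb. In 3 libraries the reactive astrocyte score, the mean over Gfap, Vim, Serpina3n and Lcn2, stood apart from the rest of the group. It was 6.23 in HT + Sham mouse 6 against 4.397 to 4.804 in the other 5 HT + Sham mice, and 5.05 and 5.12 in HT + Stroke mice 1 and 6 against 7.09 to 8.19 in the other 4. Results that rest on these libraries are therefore given with and without the 3 of them, a choice made after the data were seen. The markers of this score rose after stroke in NT mice, so leaving the 3 out favours a larger difference between stroke and sham.

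Levels per length differed widely among the 7 genes. Hmgcs1 had the highest mean FPKM (fragments counted per length of the gene, scaled to library size) over the 24 mice at 37.0, followed by Fdft1 at 24.7, Insig1 at 13.3, Cyp51 at 10.5, Sqle at 8.67, Dhcr7 at 7.44 and Idi1 at 1.14 FPKM. The ranges over mice of Hmgcs1 (27.3 to 51.4 FPKM) and Fdft1 (19.3 to 30.8 FPKM) overlapped, and so did those of the neighbours from Insig1 (8.78 to 19.1 FPKM) through Cyp51 and Sqle to Dhcr7 (6.62 to 8.57 FPKM). Fdft1 did not overlap with Insig1, and Idi1, at 0.176 to 2.78 FPKM, did not overlap with Dhcr7. The level of Idi1 is uncertain, since 25.3% of the 50-base stretches of its transcripts occur identically in transcripts of 5 other genes. Most of them lie in the processed pseudogene Gm13502, and reads from such stretches can be lost or split in counting. The level of Fdft1 is uncertain in the same way, since that share was 26.5%, with 17.2% in Ctsb.

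**Figure D1:**
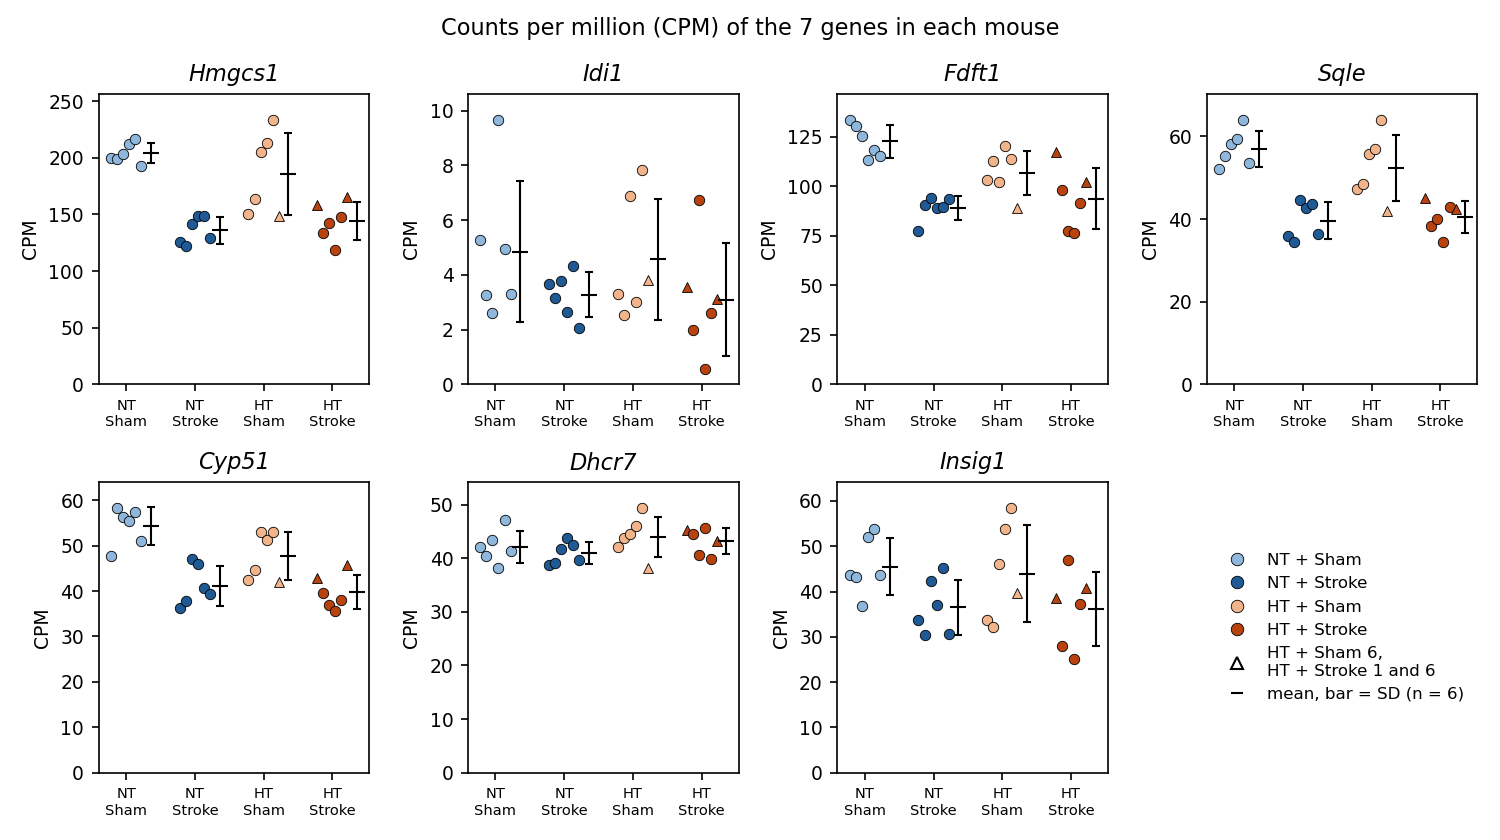
Scaled counts (CPM) of each gene in each of the 24 mice, by group, with the group mean and SD (n = 6) beside the points; triangles mark HT + Sham mouse 6 and HT + Stroke mice 1 and 6. For Hmgcs1 the NT + Stroke mice sit at 122 to 149 CPM, all below the NT + Sham mice at 193 to 217 CPM, and Dhcr7 sits at 38.1 to 49.3 CPM over all groups.

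The first comparison asked what stroke did in normotensive mice. In NT + Stroke vs NT + Sham, 4 of the 7 genes were downregulated and 0 upregulated, where 11.5% of all 16835 genes tested were downregulated and 25.9% were called in either direction. The 4 were Hmgcs1, Fdft1, Sqle and Cyp51, which fell by 23.1% to 32.5%, and for each of them the highest stroke mouse was below the lowest sham mouse. Across all genes such a lower group without overlap occurred in 6.83%. Over all genes 2426 were higher and 1939 lower, a split that moved to 2987 and 1021 without scaling beyond library size and to 2711 and 1216 in limma on log2(FPKM + 1), with 4 of the 7 genes downregulated each time. In bulk RNA, fewer cells of a type and less RNA per cell cannot be told apart.

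Hmgcs1 encodes the synthase that makes HMG-CoA, the precursor of mevalonate. Its level was 193 to 217 CPM (median 202) in NT + Sham mice and 122 to 149 CPM (median 135) in NT + Stroke mice. All 6 stroke mice were low and the groups did not overlap. The log2 fold change was -0.57 ± 0.06 (SE, n = 6 per group, adjusted P = 4.46e-06, edgeR's quasi-likelihood test with Benjamini-Hochberg adjustment), from a mean of 204 ± 8.77 CPM to 136 ± 11.8 CPM (SD).

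Idi1 encodes the isomerase that interconverts the isoprenoid building blocks. Its level was 2.62 to 9.67 CPM (median 4.13) in sham mice and 2.07 to 4.31 CPM (median 3.41) in stroke mice. The groups overlapped, and only 1 stroke mouse was below every sham mouse. The counts of these mice ran from 44 to 184, and the log2 fold change of -0.57 ± 0.29 was not called (adjusted P = 0.179, edgeR's quasi-likelihood test).

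Fdft1 encodes squalene synthase, which commits farnesyl groups to sterols. Its level was 113 to 133 CPM (median 122) in sham mice and 77.5 to 94.2 CPM (median 89.9) in stroke mice, so that every stroke mouse was low. The log2 fold change was -0.44 ± 0.06 (adjusted P = 2.50e-05, edgeR). The gene shares 774 bases with Ctsb on the opposite strand, which was counted 354285 times over the 24 libraries against 46611 for Fdft1 and was upregulated by 0.60 on the log2 scale (adjusted P = 8.72e-05). Of the 50-base stretches of its transcripts, 26.5% occur on either strand in transcripts of 2 other genes, with 17.2% in Ctsb. Whether the counting used strand is not given in the sources used here, so reads from the shared bases cannot be told apart.

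Sqle encodes squalene epoxidase, the first step that needs oxygen. It ranged from 52.1 to 63.9 CPM (median 56.8) in sham mice and from 34.5 to 44.6 CPM (median 39.5) in stroke mice, without overlap. The log2 fold change was -0.51 ± 0.08 (adjusted P = 8.11e-05, edgeR). Cyp51 encodes the demethylase that acts on lanosterol. It ranged from 47.6 to 58.2 CPM (median 55.8) in sham mice and from 36.2 to 47.0 CPM (median 40.002) in stroke mice, also without overlap but with the highest stroke mouse close to the lowest sham mouse. Its log2 fold change was -0.38 ± 0.07 (adjusted P = 0.00085, edgeR). Cyp51 shares 166 bases with Akap9 on the opposite strand, whose log2 fold change was 0.02 (adjusted P = 0.851).

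Dhcr7 encodes the reductase that turns dehydrocholesterol into cholesterol. It lay at 38.1 to 47.2 CPM (median 41.7) in sham mice and 38.8 to 43.8 CPM (median 40.7) in stroke mice, and every stroke mouse was within the sham range. The log2 fold change was -0.02 ± 0.06, with a 95% confidence interval of -0.15 to 0.10 (adjusted P = 0.842, edgeR), an interval that does not reach the estimate of any of the 4 downregulated genes. Insig1, the sterol-dependent brake on the pathway and itself a target of SREBP, lay at 36.8 to 53.7 CPM (median 43.6) in sham mice and 30.4 to 45.1 CPM (median 35.3) in stroke mice. Of the 6 stroke mice, 3 were below every sham mouse and 5 below the sham median. The log2 fold change of -0.30 ± 0.11 was just short of the threshold (adjusted P = 0.0628, edgeR), and it was called by DESeq2 (adjusted P = 0.0419). It was also called by edgeR without NT + Sham mouse 3 (-0.35, adjusted P = 0.025), without NT + Stroke mouse 3 (-0.34, adjusted P = 0.0422) or without NT + Stroke mouse 5 (-0.37, adjusted P = 0.0194).

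The other enzymes of the pathway were examined from a list of 15. In NT + Stroke vs NT + Sham 9 of the 15 were downregulated and 0 upregulated, with a median log2 fold change of -0.25 against -0.44 for the 7 genes and -0.01 for all genes tested. Early steps among them included Acat2, which joins acetyl-CoA units, at -0.28, and Mvd, the last step to the isoprenoids, at -0.37. Sterol-modifying steps included Msmo1 at -0.46, Hsd17b7 at -0.45, and Sc5d, Lss and Nsdhl at -0.25, -0.25 and -0.24. The 6 not called were Mvk, Pmvk, Fdps, Tm7sf2, Ebp and Lbr. Ebp, which acts shortly before Dhcr7, had a log2 fold change of 0.02 ± 0.09. Fdps, at -0.77 ± 0.30 (adjusted P = 0.0655), had 6 to 31 counts per library in these groups, and 26.2% of its 50-base stretches occur in other genes. For Acat2 that share was 39.1%, nearly all in Acat3.

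**Figure D2:**
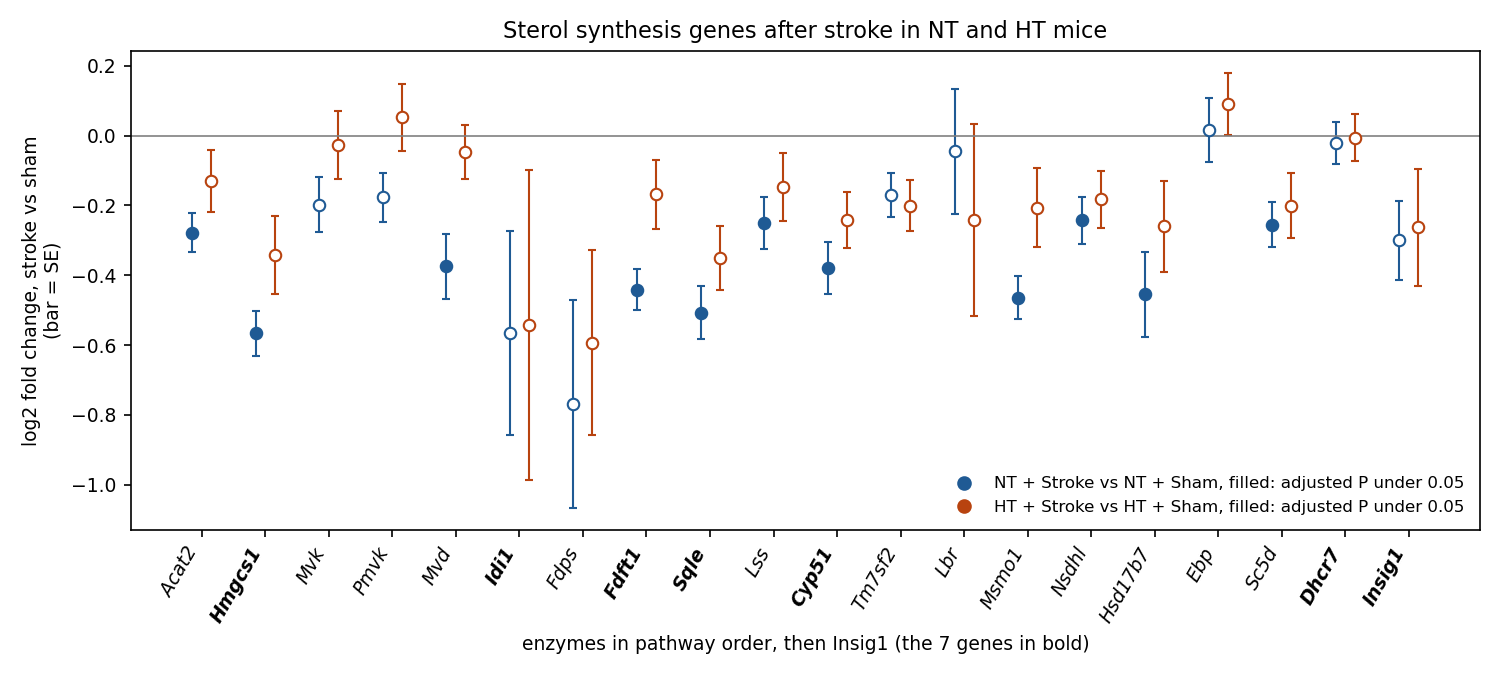
Log2 fold change of stroke vs sham (y axis, bars are SE) for sterol synthesis enzymes in pathway order and Insig1 (x axis) in NT mice (blue) and HT mice (orange), n = 6 per group; filled points passed an adjusted P of 0.05 in edgeR. In NT mice 11 of the 20 points are filled and all filled points lie below 0, whereas in HT mice 0 are filled.

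Genes that sense, take up or dispose of sterols did not follow the synthesis enzymes as a group. Of 13 genes of sterol sensing and uptake, 4 were upregulated and 4 downregulated in NT + Stroke mice, where 2426 of all 16835 genes tested were upregulated and 1939 downregulated. The downregulated ones included Srebf2, which encodes SREBP2, at -0.20 ± 0.05 (adjusted P = 0.0069, edgeR), Stard4, a sterol carrier, at -0.55 and Tmem97 at -0.38. The upregulated ones were Srebf1 at 0.70 ± 0.07, the lysosomal sterol exporters Npc2 at 0.85 and Npc1 at 0.29, and Mylip, a ubiquitin ligase, at 0.34. Insig2, the paralogue of Insig1, was at -0.10 ± 0.06 and Scap at -0.05 ± 0.05, and neither was called.

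Fatty acid synthesis, which SREBP1 controls, showed 2 upregulated and 0 downregulated of 11 genes, with a median of 0.03 on the log2 scale. Across all 16835 genes tested, 2426 were upregulated and 1939 downregulated. Fads2 and Elovl5, which desaturate and elongate fatty acids, rose by 0.37 and 0.39, whereas Fasn, the fatty acid synthase, was at -0.03 ± 0.06 and Acaca at -0.06 ± 0.06. Of 10 genes of sterol oxidation, storage and efflux, 7 were upregulated and 0 downregulated, with a median of 0.63. They included the exporters Abca1 at 1.64 ± 0.14 and Abcg1 at 0.34, the lipoprotein Apoe at 1.32 and the esterifying enzyme Soat1 at 0.56. Cyp46a1, the neuronal hydroxylase through which the brain exports cholesterol, was at -0.13 ± 0.07 (adjusted P = 0.211, edgeR).

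Cell markers moved in the same comparison, in which 2426 of all 16835 genes tested were upregulated and 1939 downregulated. Of the cortical excitatory neuron markers 8 of 8 were downregulated, with a summed level of 5783 to 6050.4 CPM in NT + Sham and 3944 to 4959 CPM in NT + Stroke mice, and of the general neuron markers 4 of 5 were downregulated. Reactive astrocyte markers were upregulated in 4 of 4 (summed level 214 to 251 CPM vs 834 to 1466 CPM), microglia and macrophage markers in 6 of 7 (194 to 209 vs 274 to 399.6 CPM), astrocyte markers in 5 of 7 (1936 to 2149.6 vs 1921 to 2259.8 CPM) and mature oligodendrocyte markers in 5 of 10 (3586 to 5235 vs 4502 to 5932 CPM). No marker of these 6 lists was at 0 in any library, and the part of neurons, astrocytes and microglia in the result was not tested. Of the regional markers, 2 of 4 of the olfactory bulb were upregulated (summed level 47.6 to 111 vs 75.5 to 294 CPM) and 0 of 7 of the striatum were called (337 to 1577 vs 448 to 2084 CPM). With the oligodendrocyte score as a covariate the same number of the 7 genes, 4, was downregulated, at -0.51 for Hmgcs1, -0.48 for Sqle, -0.48 for Fdft1 and -0.42 for Cyp51. With the olfactory bulb and striatum scores as covariates 1 was downregulated, Hmgcs1 at -0.52 (adjusted P = 0.0057, edgeR), whereas Sqle was at -0.46 (adjusted P = 0.0627), Fdft1 at -0.32 and Cyp51 at -0.25, in a fit that called 3.998% of all genes.

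The second comparison asked what stroke did in hypertensive mice. In HT + Stroke vs HT + Sham 0 of the 7 genes passed the threshold in edgeR, 3 had an unadjusted P under 0.05, and DESeq2 called 1, Sqle. Across all 16741 genes edgeR called 0.645%, 0.102% as lower, and 17% had an unadjusted P under 0.05. DESeq2 called 4.63% of 19222 genes, with 213 genes lower. All 7 log2 fold changes were below 0 in edgeR, that of Dhcr7 being above 0 in limma on log2(FPKM + 1). The HT + Sham mice were widely spread for Hmgcs1 (SD 36.1 CPM).

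Hmgcs1 was at 149 to 233 CPM (median 184) in HT + Sham and 119 to 165 CPM (median 145) in HT + Stroke mice. The groups overlapped, although all 6 stroke mice were below the sham median. The log2 fold change was -0.34 ± 0.11 (adjusted P = 0.135, edgeR). Sqle was at 41.9 to 64.0 CPM (median 52.1) and 34.4 to 45.1 CPM (median 41.1), with a log2 fold change of -0.35 ± 0.09 (adjusted P = 0.0794, edgeR), the smallest of the 7. Cyp51 was at 41.9 to 53.1 CPM (median 47.98) and 35.7 to 45.8 CPM (median 38.7), with -0.24 ± 0.08. For both genes the groups overlapped while every stroke mouse was below the sham median.

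Fdft1 was at 89.1 to 120.2 CPM (median 108) in HT + Sham and 76.3 to 117 CPM (median 94.7) in HT + Stroke mice, a log2 fold change of -0.17 ± 0.10. Insig1 was at 32.2 to 58.3 CPM (median 42.8) and 25.1 to 46.9 CPM (median 37.9), at -0.26 ± 0.17, and Idi1 at 2.55 to 7.82 CPM (median 3.56) and 0.57 to 6.73 CPM (median 2.87), at -0.54 ± 0.44. In all 3 the groups overlapped, and 5 of the 6 stroke mice were below the sham median. Dhcr7 was at 38.1 to 49.3 CPM (median 44.2) and 39.8 to 45.7 CPM (median 43.8), with a log2 fold change of -0.01 ± 0.07 and a 95% confidence interval of -0.15 to 0.14.

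The 3 libraries that stood apart were at the edges of this comparison for Hmgcs1. HT + Sham mouse 6 was the lowest of its group at 149 CPM, and HT + Stroke mice 1 and 6 were the highest of theirs at 158 and 165 CPM. This was not so for every gene. For Insig1, HT + Sham mouse 6 was at 39.7 CPM in a group of 32.2 to 58.3 CPM. The highest Insig1 of the HT + Stroke group was that of mouse 3 at 46.9 CPM. When the 3 were left out, 4 of the 7 genes were downregulated, Hmgcs1 at -0.48 (adjusted P = 0.0302), Sqle at -0.46 (adjusted P = 0.0116), Fdft1 at -0.34 (adjusted P = 0.0454) and Cyp51 at -0.36 (adjusted P = 0.0243, edgeR), in a fit that called 8.47% of all genes. Dhcr7 was then at -0.06 (adjusted P = 0.772). The 3 were chosen by a score whose markers rise after stroke, so these calls are not an independent test of stroke in HT mice. Leaving out HT + Sham mouse 6 alone or HT + Stroke mouse 1 alone gave 1 call, Sqle, with an adjusted P of 0.0473 and 0.0485.

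Among the other 15 enzymes 0 were called in HT + Stroke vs HT + Sham with all mice, 13 of 15 values were below 0 and the median was -0.19. Without these 3, without HT + Stroke mouse 1 or without HT + Stroke mouse 6 alone, 1 of the 15 was called. Markers moved here too, with 5 of 10 mature oligodendrocyte markers upregulated (summed level 3848 to 5106 CPM in HT + Sham and 5422 to 5948 CPM in HT + Stroke mice) and 0 of 8 cortical excitatory neuron markers called (4643 to 6474 vs 4146 to 5840.4 CPM). Of all 16741 genes tested here, 91 were upregulated and 17 downregulated. None of the 7 striatum markers passed the threshold, but all 7 had an unadjusted P under 0.05 (328 to 1039.8 vs 823 to 2591 CPM, median log2 fold change 1.40). DESeq2 called all 7 of them higher, in a test that called 4.63% of all genes. In the fit without the 3 libraries the called markers were 4 of 8 of cortical excitatory neurons, all lower, and 6 of 10 of mature oligodendrocytes, 5 of 7 of microglia and macrophages, 4 of 4 of reactive astrocytes and 1 of 7 of the striatum, all higher, and their part in the 4 downregulated genes was not tested. The 3 libraries were chosen by the reactive astrocyte score itself, so the calls of its markers in that fit are no independent result. With the regional scores as covariates 0 of the 7 and 0% of all genes were called, with Hmgcs1 at -0.51 and Sqle at -0.50.

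**Figure D3:**
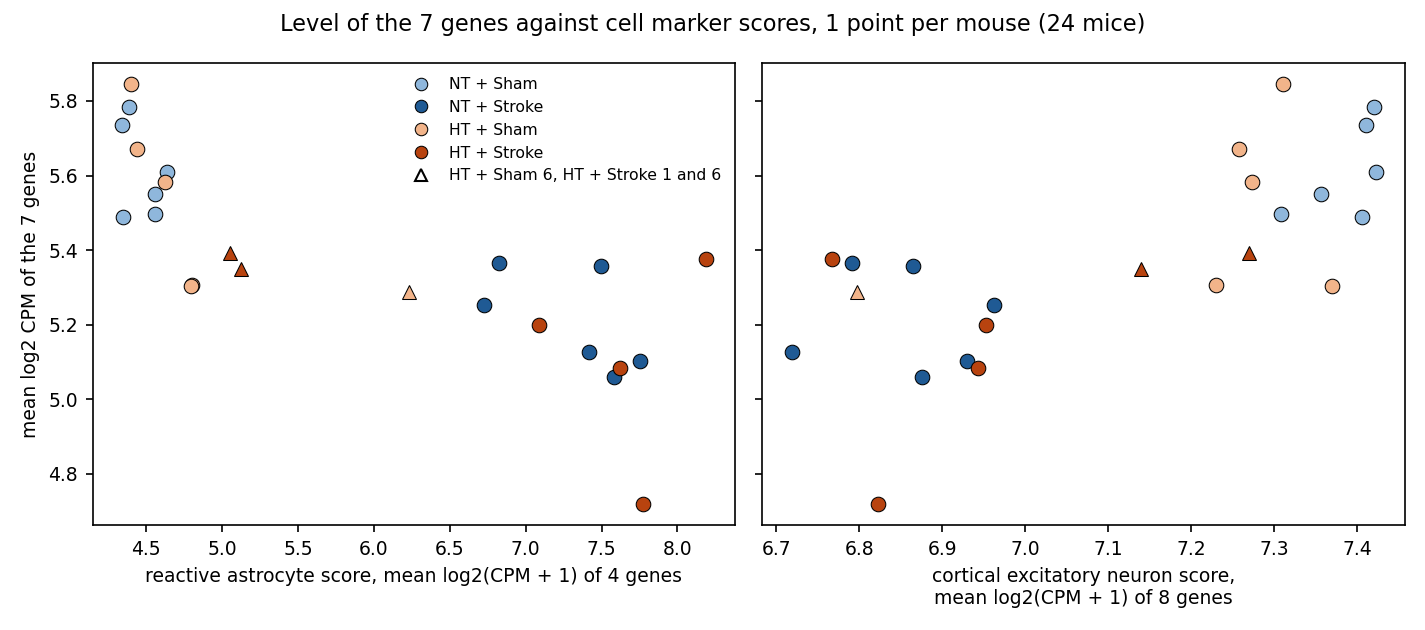
Mean log2 CPM of the 7 genes (y axis) against the reactive astrocyte score (left) and the cortical excitatory neuron score (right) in each of the 24 mice, coloured by group; triangles mark HT + Sham mouse 6 and HT + Stroke mice 1 and 6. The NT + Sham mice lie at 5.49 to 5.78 and the NT + Stroke mice at 5.06 to 5.37 on the y axis, and the triangles lie at 5.29 to 5.39. The HT + Sham mice, at 5.29 to 5.85, overlap with the HT + Stroke mice, at 4.72 to 5.39. Each gene has the same weight in the mean, and in the lowest mouse, HT + Stroke mouse 4, Idi1 had 11 counts.

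Stroke averaged over NT and HT mice, tested in 1 fit of all 24 libraries, gave 4 of the 7 genes downregulated and 0 upregulated, where 11.6% of 17608 genes were downregulated and 25.8% called in either direction. The log2 fold changes were -0.46 ± 0.07 for Hmgcs1 (adjusted P = 2.91e-05, edgeR), -0.44 ± 0.06 for Sqle, -0.31 ± 0.06 for Fdft1 and -0.32 ± 0.06 for Cyp51. Insig1 was at -0.29 ± 0.11 (adjusted P = 0.0509) and Idi1 at -0.56 ± 0.28 (adjusted P = 0.152). Dhcr7 was at -0.02 ± 0.04, with a 95% confidence interval of -0.11 to 0.07. In the absence of the 3 libraries 5 were downregulated, Insig1 being added at -0.33 (adjusted P = 0.0453, edgeR), in a fit that called 30.6% of all genes. The choice of these libraries favours a larger stroke effect, so that fit is not an independent test. Insig1 was likewise called when any 1 of 8 libraries was left out, with adjusted P from 0.024 to 0.0492, and Idi1 was called at -0.76 (adjusted P = 0.0383) without HT + Stroke mouse 3. Of the other 15 enzymes 11 were downregulated and 0 upregulated, with and without the 3 libraries, and Fdps at -0.69 ± 0.20 and Tm7sf2 at -0.19 ± 0.05 were among them here although they were not called in NT mice alone. In the same test 7 of 8 cortical excitatory neuron markers were downregulated, and 7 of 7 striatum and 8 of 10 mature oligodendrocyte markers were upregulated. With the olfactory bulb and striatum scores as covariates 4 of the 7 genes remained downregulated, Hmgcs1 at -0.42, Sqle at -0.40, Fdft1 at -0.28 and Cyp51 at -0.28 (adjusted P from 0.0127 to 0.0305, edgeR), with 1 of the 15 enzymes, in a fit that called 5.82% of all genes.

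Whether the effect of stroke differed with angiotensin II infusion was tested as an interaction in the same fit. The interaction is the stroke effect in HT minus that in NT mice on the log2 scale, and 0 of the 7 genes and 0% of all genes were called by edgeR. DESeq2 called 3 genes higher and 13 lower, none of them among the 7, and 10.4% of all genes had an unadjusted P under 0.05. The values were 0.22 for Hmgcs1 (95% confidence interval -0.06 to 0.49), 0.15 for Sqle (-0.11 to 0.40), 0.13 for Cyp51 (-0.10 to 0.36) and 0.01 for Dhcr7 (-0.17 to 0.19). Fdft1 had 0.27 (0.03 to 0.51), with an unadjusted P of 0.0299 and an adjusted P of 0.438 in edgeR, and 0.11 without the 3 libraries. Insig1 and Idi1 were at 0.03 and 0.01 with standard errors of 0.22 and 0.56. A difference between the stroke effects in HT and NT mice was not shown for these genes, and the intervals do not show the effects to be alike.

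Angiotensin II infusion was compared without and with stroke. In HT + Sham vs NT + Sham edgeR called 0 of the 7 genes and 0% of all genes, with 8.03% of 16581 genes at an unadjusted P under 0.05 and 1 gene, none of the 7, called by DESeq2. Fdft1 was at -0.19 ± 0.07 and Cyp51 at -0.18 ± 0.08, with unadjusted P-values of 0.0146 and 0.0276 and adjusted P-values of 0.502 and 0.56 (edgeR), and in both genes all 6 HT + Sham mice were below the NT + Sham median. Hmgcs1 was at -0.13 ± 0.10, Sqle at -0.12 ± 0.09, Idi1 at -0.08 ± 0.35, Insig1 at -0.05 ± 0.14 and Dhcr7 at 0.07 ± 0.07. The HT + Sham mice spread more than the NT + Sham mice for all genes but Idi1. The SD was 36.1 vs 8.77 CPM for Hmgcs1, 7.99 vs 4.33 CPM for Sqle and 10.7 vs 6.29 CPM for Insig1. It was 11.1 vs 8.30 CPM for Fdft1, 5.27 vs 4.10 CPM for Cyp51, 3.75 vs 3.06 CPM for Dhcr7 and 2.22 vs 2.58 CPM for Idi1. Leaving out HT + Sham mouse 6 gave -0.15 ± 0.07 for Fdft1 (unadjusted P = 0.0401) and -0.15 ± 0.08 for Cyp51 (unadjusted P = 0.0662), with 0% of all genes called by edgeR, and an SD of 34.9 CPM for Hmgcs1, 6.82 CPM for Sqle and 11.7 CPM for Insig1. Hmgcs1 lay at 149 to 163 CPM in HT + Sham mice 1, 2 and 6 and at 205 to 233 CPM in mice 3, 4 and 5.

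In HT + Stroke vs NT + Stroke edgeR called 0 of the 7 genes and 0% of all genes, with 7.23% of 17008 genes at an unadjusted P under 0.05 and 0 called by DESeq2. The log2 fold changes were 0.08 ± 0.08 for Hmgcs1, 0.03 ± 0.08 for Sqle, 0.07 ± 0.09 for Fdft1, -0.05 ± 0.08 for Cyp51 and 0.07 ± 0.06 for Dhcr7. For Insig1 and Idi1 they were -0.02 ± 0.14 and -0.08 ± 0.39. For each of the 7 genes the groups overlapped. Without HT + Stroke mice 1 and 6 Hmgcs1 was at 0.00, Sqle at -0.02 and Fdft1 at -0.05, and 0% of genes were called. Averaged over sham and stroke, the angiotensin II effect was -0.11 ± 0.06 for Cyp51 (unadjusted P = 0.0486, adjusted P = 0.900, edgeR), and it was between -0.08 and 0.07 for the other 6 genes, with 0% of genes called and 4.41% of 17608 at an unadjusted P under 0.05. With the 3 libraries left out Cyp51 was at -0.14 ± 0.06 (unadjusted P = 0.0259, adjusted P = 0.839, edgeR), the other 6 were between -0.10 and 0.09, and again 0% were called.

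HT + Stroke vs NT + Sham, the combined condition against saline with sham surgery, gave 4 of the 7 genes downregulated. It shares the NT + Sham mice with the first comparison. Hmgcs1 was at -0.47 ± 0.07 (adjusted P = 0.00603, edgeR), Sqle at -0.47 ± 0.07, Cyp51 at -0.42 ± 0.07 and Fdft1 at -0.36 ± 0.09 (adjusted P = 0.0174), where 6.37% of all genes were downregulated and 14.7% called in either direction. Hmgcs1, Sqle and Cyp51 did not overlap between the groups, as 3.91% of all genes did not in this direction, and for Fdft1 5 of 6 HT + Stroke mice were below every NT + Sham mouse, the exception being mouse 1 at 117 CPM. Markers moved in this comparison as well, with 4 of 8 of cortical excitatory neurons and 4 of 5 general neuron markers downregulated, and 8 of 10 of mature oligodendrocytes, 4 of 4 of reactive astrocytes and 5 of 7 of microglia and macrophages upregulated, and the part of neurons, astrocytes and microglia in the result was not tested. Dhcr7 was at 0.06 ± 0.06, Insig1 at -0.31 ± 0.14 and Idi1 at -0.62 ± 0.45. Of the other 15 enzymes 5 were downregulated, with Msmo1, Nsdhl, Hsd17b7 and Sc5d among them, and 3 were without NT + Sham mouse 1 or without HT + Stroke mouse 2. Hmgcs1, Sqle, Cyp51 and Fdft1 were downregulated also without the 3 libraries, at -0.55, -0.52, -0.50 and -0.48, with 6 of the 15 enzymes. That fit called 20.6% of all genes, and the choice of the libraries left out favours a larger difference between stroke and sham. With either the regional scores or the oligodendrocyte score as covariates 0 of the 7 and 0% of all genes were called. The oligodendrocyte score was 6.93 to 7.40 in NT + Sham and 7.48 to 7.62 in HT + Stroke mice, without overlap. A fit with that covariate can hardly separate score from group, so its lack of calls decides nothing about these cells.

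Covariation among mice of the same group differed between pairs of the 7 genes. Log2 CPM was centred within each group, and Pearson's r was taken over the 24 mice as a description, since the points share libraries, depth scaling and tissue composition. Of 21 pairs 13 had r above 0.5 and 1 was below 0, with a median of 0.54. Hmgcs1 and Sqle were the closest pair at r = 0.92, followed by Sqle and Cyp51 at 0.82 and Hmgcs1 with Cyp51 and Insig1 at 0.81 each. Dhcr7 had r between -0.14 and 0.59 with the others, highest with Sqle. Fdft1 was between 0.05 and 0.53, highest with Cyp51, and Idi1 was highest with Insig1 at 0.76. Without the 3 libraries 9 of the 21 pairs were above 0.5 with a median of 0.44 over 21 mice, Hmgcs1 and Sqle remained at 0.91, and Hmgcs1 and Fdft1 went from 0.52 to 0.26.

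**Figure D4:**
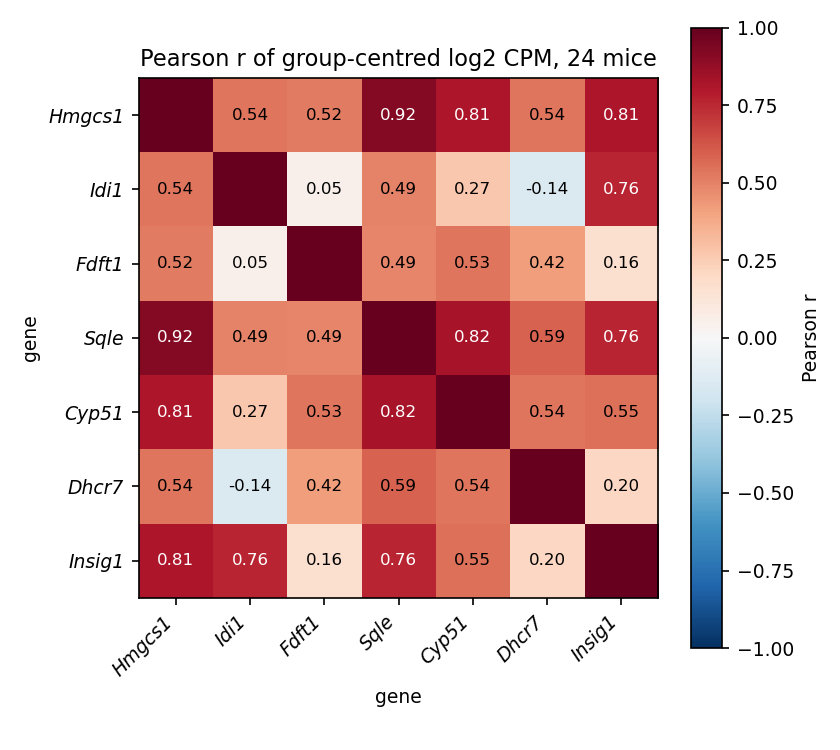
Pearson's r between the 7 genes (both axes) for log2 CPM centred within groups over 24 mice, in colour and as numbers. Hmgcs1, Sqle, Cyp51 and Insig1 have r of 0.55 to 0.92 with each other, and Idi1 and Dhcr7 are the pair below 0 at -0.14.

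The genes most like the 7 were sought by the correlation of group-centred log2 CPM with the mean of the standardised values of the 7, among 14065 other genes over 24 mice. The 10 most like were Gpm6a at r = 0.94, Ppp3cb and Opcml at 0.93, Etl4, Msmo1, Glra2 and Nbea at 0.92, and Ctnna2, Rab6a and Rtn3 at 0.91. Msmo1, a sterol demethylation enzyme, was the only one of the 15 other sterol synthesis enzymes among the first 30. Only 2 of the 15 were among the first 100, and Mvk, Pmvk and Ebp had r of -0.18, -0.13 and -0.34. Snap25, a general neuron marker, was at rank 11 with r = 0.91, and the others of its marker list were not among the first 30. The part of neurons in this likeness was not tested. Stard4 was at rank 63 with r = 0.85. Srebf1 was near the other end at rank 14051, with r = -0.83, and Apoe was at -0.77. Over the 21 mice without the 3 libraries 7 of the first 10 were shared and Msmo1 was first at 0.91.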

How the data were processed

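RNA sequencing was analysed in 24 libraries of 4 groups with 6 each. Reads were mapped by the authors to the mouse genome of Ensembl. Raw counts per gene and FPKM were deposited in 4 tables, each of which covers a pair of groups. The counts as deposited are whole reads or read pairs per gene without normalization, and the FPKM as deposited were scaled by the authors for gene length and library size. The submitters' processing notes name featureCounts 1.5.0-p3 and DESeq2 1.20.0. The aligner, the genome build and the strand setting of the counting are not given in the sources used here. The tables also hold the authors' fold changes, P-values and group means, which were not used, and 48 columns of normalized counts, which were not used.

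Tables were joined by Ensembl identifier to 33981 genes, and the 48 repeat comparisons of libraries between tables held 0 differences. Where a table did not list a gene, its count was set to 0. The identifiers of 33932 genes are in GENCODE release 21 on GRCm38, 97.55% at the same position. Total counts were 15922919 to 24865998 per library, and Idi1, the lowest of the 7 genes, had 11 to 184 counts. No 2 libraries of a group agreed within sampling noise (smallest chi-square per degree of freedom 5.39).

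Tests were run with edgeR 4.0.16 (R 4.3.3) on the counts of the groups compared (or of all 24 libraries for the interaction and the averaged effects), with filterByExpr (minimum count 10, minimum total 15), TMM scaling and a two-sided robust quasi-likelihood test. Benjamini-Hochberg adjustment covered every gene tested, and adjusted P-values under 0.05 were called. CPM were taken relative to library sizes after TMM, and log2 CPM carry a prior count of 2. Standard errors were derived from the log2 fold change and the F statistic of this test. Confidence intervals were built from these standard errors with the t distribution. The procedure was tested on simulated data. Every member is named in every comparison, genes of 4 other pathway lists may be named with those past the threshold first, and the 10 most similar genes are named by correlation. The members and all lists were chosen with earlier results of these data known. In all, 13 marker lists were examined.

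Alternatives were limma 3.58.1 on log2(FPKM + 0.1) or log2(FPKM + 1), DESeq2 1.42.0, scaling by upper quartile or by library size alone, a filter that kept every gene with a count or one that asked each library for 10 or more, all 4 groups in one fit, olfactory bulb and striatum scores or the oligodendrocyte score as covariates, and each library left out. Leaving out 3 libraries that stood apart, and the library number as a replicate block, were added after the data were seen. Promoter windows came from RefSeq (GRCm38.p6), and stretches shared with other genes were found by exact match of 50 bases in the GENCODE transcripts. Values of some genes of the other lists are not reported here, although the counts of those lists include them.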

Additional observations from a re-analysis of the deposited data

Results flagged for a closer look

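The 7 genes and the marker scores of each group of 6 mice were screened for a mouse whose gap to the next exceeded Dixon's critical value as a share of the whole range of its group, and 5 of 80 such groups of values had one, where chance alone gives about 1 in 20. Among the 7 genes the 1 such value was Fdft1 in NT + Stroke mouse 1, at 77.5 CPM against 88.7 to 94.2 CPM in the other 5 mice, so the lowest value of that group lies further from NT + Sham than the rest. The same mouse had the lowest general neuron score of its group, 9.01 against 9.15 to 9.21.

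HT + Sham mouse 6 had a reactive astrocyte score of 6.23 against at most 4.804 in the other mice of its group, and a cortical excitatory neuron score of 6.80 against 7.23 to 7.37. It had the lowest Hmgcs1 of its group, 149 CPM. NT + Sham mouse 5 had a choroid plexus score of 2.37 against 0.92 to 1.38 in the other mice, while its Hmgcs1, at 217 CPM, was the highest of its group.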

How the results depend on the processing

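Libraries are numbered 1 to 6 in every group, and no label ties a number to a litter, batch or day. Deviations from the group mean of same-numbered libraries had r from -0.48 to 0.36 over 15492 genes, with 2 or 3 of 6 pairs above 0.1 in each comparison of 2 groups and 2 to 4 of 12 libraries closest to their own number. With the replicate block, downregulated enzymes in HT + Stroke vs NT + Sham went from 5 to 3 while all genes called went from 14.7% to 4.60%, all genes called in HT stroke went from 0.645% to 0.275%, and downregulated members went from 4 to 5 in NT stroke and for stroke averaged, Insig1 being added each time. It changed no other call of the 7 genes. Of the 7 genes' values under alternatives other than leaving out 1 library, 581 kept direction and call, 40 changed sign, 12 gained and 11 lost a call, and the cause of the others was not tested unless the alternative shows it. In NT + Stroke vs NT + Sham, downregulated members went from 4 to 1 and enzymes from 9 to 1 with regional scores as covariates, and enzymes to 4 with the oligodendrocyte score and to 5 without scaling. In HT + Stroke vs HT + Sham, members went from 0 to 1 with DESeq2, 2 with all 4 groups in one fit and 4 without the 3 libraries, and enzymes from 0 to 1 with DESeq2, with all genes and without the 3 libraries, and 2 in one fit. Of all genes, DESeq2 called 4.63%, the fit of all 4 groups 6.39% and the fit without the 3 libraries 8.47%, against 0.645%. In HT + Stroke vs NT + Sham both counts were 0 with either covariate set, and there the oligodendrocyte score did not overlap between the groups. For stroke averaged, enzymes went from 11 to 1 with regional scores and 5 with the oligodendrocyte score. With 1 library left out, counts ran from 4 to 5 (members, NT stroke), 0 to 1 (members and enzymes, HT stroke) and 3 to 6 (enzymes, HT + Stroke vs NT + Sham).

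Values that changed sign were all of genes not called. With regional scores they were, in HT + Sham vs NT + Sham, Hmgcs1 0.0075, Idi1 0.56 and Insig1 0.015. In HT + Stroke vs NT + Stroke they were Sqle -0.010, Idi1 0.019, Fdft1 -0.098 and Insig1 0.017. They were Idi1 0.40 in HT + Stroke vs NT + Sham, and Idi1 -0.24, Fdft1 -0.033, Cyp51 -0.018 and Dhcr7 -0.036 for the interaction. With the oligodendrocyte score Idi1 was 0.054 in NT stroke, 0.081 in HT + Stroke vs NT + Stroke and 0.96 in HT + Stroke vs NT + Sham, Insig1 0.029 and -0.026 in HT + Stroke vs NT + Stroke and the interaction, and Dhcr7 -0.021 and -0.040 in HT + Stroke vs NT + Sham and the interaction. Without scaling, Dhcr7 was 0.045 in NT stroke, 0.014 averaged and -0.063 for the interaction, Sqle -0.021 in HT + Stroke vs NT + Stroke, and Idi1 -0.042 and Insig1 -0.036 for the interaction. In limma with a pseudocount of 1, then 0.1, Dhcr7 was 0.024 and 0.027 in NT stroke, 0.016 and 0.018 in HT stroke, 0.020 and 0.023 averaged and -0.0071 and -0.0082 for the interaction, and Idi1 -0.061 and -0.24 for the interaction. Without the 3 libraries Sqle and Fdft1 were -0.022 and -0.046 in HT + Stroke vs NT + Stroke, and Idi1, Dhcr7 and Insig1 were -0.076, -0.033 and -0.056 for the interaction.

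With 1 library left out, Dhcr7 ran from -0.033 to 0.028 in NT stroke and -0.041 to 0.026 in HT stroke. Idi1 ran from -0.30 to 0.24 and Insig1 from -0.14 to 0.029 in HT + Sham vs NT + Sham. In HT + Stroke vs NT + Stroke, Sqle ran from -0.0053 to 0.067, Idi1 from -0.47 to 0.13 and Insig1 from -0.10 to 0.058. For the interaction Idi1 ran from -0.39 to 0.23, Dhcr7 from -0.029 to 0.045 and Insig1 from -0.055 to 0.13. For angiotensin II averaged, Hmgcs1 ran from -0.061 to 0.0036, Idi1 from -0.28 to 0.086 and Insig1 from -0.081 to 0.0081. Idi1 had the fewest counts of the 7 genes, with a mean of 93 and an SD of 51.1 in NT + Sham.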

Other observations

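Sterol sensing, uptake and efflux genes were also tested for stroke averaged over NT and HT mice, in edgeR's quasi-likelihood fit of all 24 libraries. Of the 13 genes of sterol sensing and uptake 4 were upregulated and 6 downregulated, where 25.8% of all genes were called. Those downregulated included Stard4 at -0.44 on the log2 scale, Mbtps2, the protease that makes the last cut of SREBP, at -0.25, Tmem97 at -0.23, Srebf2 at -0.18 and Insig2 at -0.14. Npc2 rose by 0.76 and Srebf1 by 0.55. Of the 10 genes of sterol oxidation, storage and efflux 7 were upregulated and 0 downregulated, among them Ch25h, which makes an oxysterol, at 1.35 ± 0.29 (SE), Abca1 at 1.34 ± 0.22, Apoe at 1.14 ± 0.18 and Nr1h3, which encodes the sterol receptor LXR alpha, at 0.65 ± 0.12. Of 11 genes of fatty acid synthesis 2 were upregulated and 1 downregulated.

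For stroke in HT mice alone 0 of the genes of these 3 lists passed the threshold in edgeR, where 0.645% of all genes did. An unadjusted P under 0.05 was found for 7 genes of sterol sensing and uptake, 6 of sterol oxidation, storage and efflux and 0 of fatty acid synthesis. The share across all genes was 17%. DESeq2 called 2 of the sensing and uptake genes and 2 of the oxidation, storage and efflux genes. Across all genes it called 4.63%. In edgeR without HT + Sham mouse 6 and HT + Stroke mice 1 and 6, 7 of the 10 oxidation, storage and efflux genes were upregulated. Of the sensing and uptake genes 2 were upregulated and 1 downregulated, in a fit that called 8.47% of all genes. These 3 libraries were chosen, after the data were seen, by a score whose markers rise after stroke. Calls in this fit are therefore not an independent test of stroke in HT mice. The values that follow are of all mice. All 10 genes of sterol oxidation, storage and efflux had values above 0, with a median of 0.36 against 0.00 for all genes tested. The smallest adjusted P was that of Nr1h3, 0.0907, at 0.61 ± 0.17, and Abca1 was at 1.05 ± 0.40 with an adjusted P of 0.212.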
